A study of Mus musculus with 42 samples.

Results

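The data described here are RNA-seq libraries of mouse CD4 T cells taken 3 h after stimulation, which compare cells lacking Trmt61a with wild type cells. They form 4 of the 42 samples of the series, namely all libraries of the 3 h comparison, and every gene of the deposited 3 h table was kept. The first group holds 2 libraries (cKO1 and cKO2) of the conditional Trmt61a knockout (cKO), and the second holds 2 libraries (WT1 and WT2) from wild type (WT) mice. All came from C57BL/6 mice of 8 weeks. Naive CD4 T cells were isolated from the spleen with a kit, placed in X-VIVO medium, and cultured on plates coated with anti-CD3 at 5 µg/ml together with anti-CD28 at 2 µg/ml, antibodies that engage the T cell receptor and its costimulatory receptor. Both groups were stimulated alike and differ by genotype. For the RNA-seq mice the labels name no Cre driver, so the cells in which the gene was deleted are known from the labels only as far as the word conditional goes. The labels do not say whether the libraries of a group came from separate animals or pools, so the p-values below measure only how far these samples spread, which may be technical variation.

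Trmt61a encodes the catalytic subunit of the enzyme that, with the partner subunit Trmt6, adds a methyl group to the adenosine at position 58 of tRNAs, a mark called m1A58 that stabilises the fold of the tRNA. A naive CD4 T cell that meets its antigen leaves quiescence, switches on a wave of immediate early transcription factors, and over the following hours builds the ribosomes, nutrient transporters and cytokines needed for growth and division. Interferons are secreted signals that reach the JAK kinases and STAT transcription factors of the receiving cell and induce antiviral and antigen-presenting genes. Interferon-gamma, made by T cells themselves, also favours the type 1 helper programme led by the transcription factor Tbx21.

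The targeted gene was lower in both knockout libraries. Trmt61a (ENSMUSG00000060950), on the plus strand of chromosome 12 at 111678105 to 111683902 (mm10), had a normalised read count of 136 and 98.8 in cKO1 and cKO2, against 1148 and 1133 in WT1 and WT2. Its log2 fold change in the authors' deposited table was -3.28 (adjusted p = 4.24e-40). These values are read counts divided by one scaling factor per library, so they can be compared between libraries but not between genes of different length. Of 9 genes that write, erase or bind m1A, no other was listed, including the partner Trmt6 and the mitochondrial enzymes Trmt61b and Trmt10c. Within 2 Mb of Trmt61a, no other gene was called in the authors' table.

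The deposited table holds the 1091 genes whose unadjusted p was under 0.05, which are called listed below, 570 of them higher (3.70% of the genes tested) and 521 lower (3.38%) in cKO. Together that is 7.08% of the 15399 genes behind the authors' adjustment, a number recovered from their p-values. Calls were taken as an adjusted p below 0.05 in that table, which held for 253 genes, or 1.64% of those tested. In cKO, 176 were called higher (1.14%) and 77 lower (0.500%). Since every row was chosen for its p-value, the groups did not overlap for 1067 of the 1091 listed genes (97.8%). Among the called genes this held for all 253. Where the text below says that libraries of a called gene did not overlap, it describes the values and sets no gene apart from other calls. The split between the directions depended on the tool: 206 higher and 208 lower by limma, 137 and 133 by edgeR, and 117 and 174 by edgeR with TMM scaling, and 212 and 115 by DESeq2, each adjusted over the listed genes alone. DESeq2 adjusted over all genes gave 104 higher and 33 lower. TMM scaling moved the median log2 fold change of the listed genes by -0.13, and no listed gene changed sign under it.

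Transcripts of other organs set libraries apart and give the extreme fold changes. Pancreatic acinar genes, which encode digestive enzymes, were called higher in 24 of 66 cases, and salivary gland genes were called lower in 10 of 54. Without Egf, a salivary product that the pancreatic list also holds, 32 listed pancreatic genes summed to 1887 and 12075 in cKO1 and cKO2, against 168 and 293 in WT1 and WT2. The 19 listed salivary genes reached sums of 35.2 and 45.2 in cKO1 and cKO2, against 11462 and 998 in the WT libraries. Thus cKO2 carried most pancreatic signal and WT1 most salivary signal. Amylase 2a1 (Amy2a1) stood at 104 and 727 in the cKO libraries and at 0 in both WT libraries. The kallikrein gene Klk1b26 was at 0 in both cKO libraries, against 2786 and 269 in WT1 and WT2. Immunoglobulin segments, 29 of 30 listed lower and none called in the authors' table, summed to 356 and 403 in cKO, against 662 and 3517 in WT1 and WT2. With DESeq2 on the recovered reads, 19 pancreatic genes were called, and 17, 2, 14 and 16 without cKO1, cKO2, WT1 and WT2. For salivary genes it called 13, then 5, 9, 1 and 16 in that order of omission. With the pancreatic, salivary and immunoglobulin genes left out, 152 genes stood higher and 67 lower among the calls, with median log2 fold changes of 1.20 and -1.54. Whether other tissue in these libraries played a part in any other result was not tested.

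**Figure D1:**
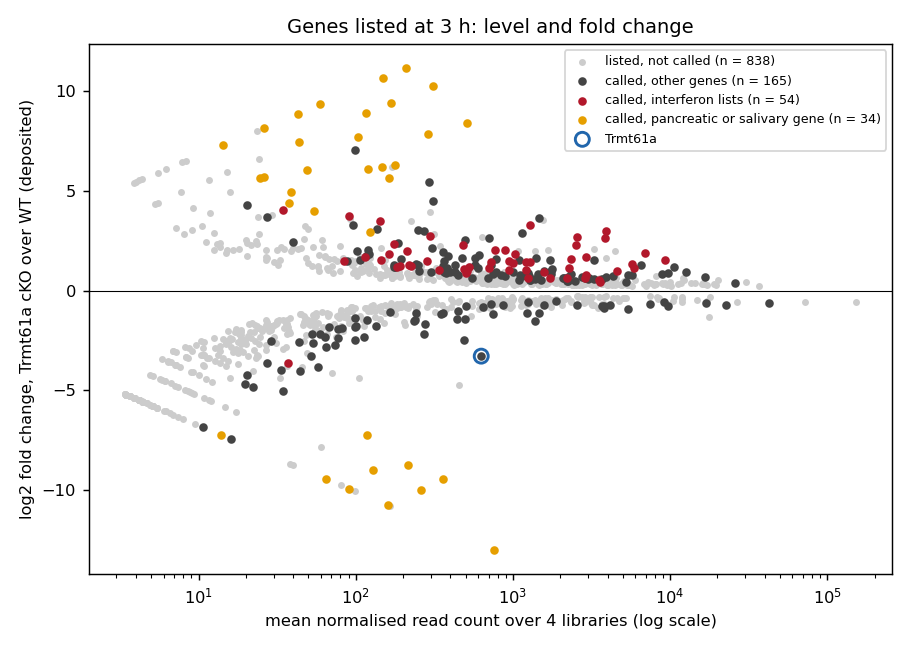
Genes listed at 3 h, with the mean normalised read count over the 4 libraries (log scale) against the deposited log2 fold change of Trmt61a cKO over WT, 1 point per gene. Called genes of the interferon lists lie above 0 except 1, Apol9b, and the pancreatic and salivary genes give the outermost points; folds of genes at 0 in both libraries of a genotype depend on the authors' fit and are no bounds.

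Interferon-response genes were higher in cKO. Among the factors that carry the interferon signal, 13 of 25 receptors, kinases and transcription factors were listed, all higher, and 8 (32%) were called, all higher. Irf1, a transcription factor induced early by interferon-gamma, had a normalised read count of 12909 and 14499.7 in cKO1 and cKO2, against 6255 and 3298 in WT1 and WT2. The deposited table gives it a log2 fold change of 1.52 (adjusted p = 3.48e-05). Stat2, which with Irf9 forms the complex that reads interferon-stimulated response elements, stood at 1425 and 1485 in cKO, against 666 and 443 in WT. Irf9 itself stood at 2054 and 2095 in cKO, against 1246 and 889 in WT. Both parts of that complex were thus higher in each knockout library than in either WT library. Irf7, an amplifier of type I interferon production, was at 968 and 966 in cKO and 486 and 389 in WT. Nlrc5, the transactivator of MHC class I genes, reached 8711 and 7518 in cKO, against 3979.7 and 3412 in WT, a log2 fold change of 1.13 (adjusted p = 1.04e-09) in the authors' deposited table. Ciita, its class II counterpart, and Batf2 were called too. Batf2 rested on cKO1, with 118 and 12.6 in cKO1 and cKO2 and 2.9 and 4.98 in WT1 and WT2. Listed members that missed the threshold included the feedback inhibitor Socs1, at 11858 and 8347 in cKO and 5447 and 6779.9 in WT (adjusted p = 0.0569 in the authors' table), and Irf8, at 6543 and 5397 in cKO and 2645 and 1162 in WT (adjusted p = 0.175 there). DESeq2 on recovered reads, adjusted over all 15399 genes, called 6 of this list with all libraries and 1, 1, 6 and 3 without cKO1, cKO2, WT1 and WT2. In bulk RNA, a higher level in every cell and a larger share of cells that express a gene cannot be told apart, here and throughout.

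The 60-base windows below lie upstream of the annotated starts of genes called in the authors' table, all higher in cKO except Apol9b, and show the letters that interferon-response promoters are known for. The motif GAAA, any 2 bases, GAAA was searched on both strands in the 250 bases before each start. It is a core of the interferon-stimulated response element and is printed in capitals, reading TTTC, 2 bases, TTTC where it lies on the other strand, with overlapping matches run together. Sequences are from RefSeq on GRCm38.p6, plus strand, 5′ to 3′, at chr3:142496744-142496803 for Gbp5, chr3:142620579-142620638 for Gbp2, chr3:142559980-142560039 for Gbp3, chr3:142530258-142530317 for Gbp7, chr10:128270251-128270310 for Stat2, chr19:34640779-34640838 for Ifit1 and chr15:77729016-77729075 for Apol9b.
Gbp5: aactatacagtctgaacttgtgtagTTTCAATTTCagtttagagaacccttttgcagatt
Gbp2: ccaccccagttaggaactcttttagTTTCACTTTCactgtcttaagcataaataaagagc
Gbp3: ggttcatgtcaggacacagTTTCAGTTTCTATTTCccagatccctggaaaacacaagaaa
Gbp7: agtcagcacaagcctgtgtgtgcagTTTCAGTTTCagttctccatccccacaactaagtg
Stat2: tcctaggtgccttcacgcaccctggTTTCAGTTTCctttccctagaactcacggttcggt
Ifit1: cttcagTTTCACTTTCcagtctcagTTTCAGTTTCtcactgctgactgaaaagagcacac
Apol9b: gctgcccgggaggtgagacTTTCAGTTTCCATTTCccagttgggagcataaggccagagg
Among 27025 genes with a promoter in the RefSeq table, 3.46% hold this motif. Promoters were matched by symbol for 52 of the 79 listed genes of the antiviral, GTPase and interferon signalling lists, and 29 of them (55.8%) hold it. Of all genes called higher, 131 of 176 were matched and 29 (22.1%) hold it, and of those called lower, 51 of 77 were matched and 3 (5.88%) hold it. Of all 1091 listed genes, 752 were matched and 64 (8.51%) hold it. Of the 46 genes of the antiviral, GTPase and signalling lists that were called higher, 27 were matched and 13 (48.1%) hold it. Promoters were matched for only 5 of the 14 called GTPase genes, and all 5 hold it. Apol9b holds overlapping copies and was the single gene of these lists called lower in cKO. A match describes the letters only.

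The interferon-inducible GTPases, which assemble on the membranes of intracellular pathogens, rose together. Of 28 genes 21 were listed, all higher, and 14 (50%) were called, all higher, with a median log2 fold change of 2.30 over the listed members, against 0.31 over all listed genes. Among the guanylate-binding proteins, Gbp2 stood at 7579 and 6442 in cKO1 and cKO2, against 1100.3 and 637 in WT1 and WT2, and Gbp5, which promotes inflammasome assembly, at 5264 and 3608 in cKO, against 772 and 616 in WT. Their log2 fold changes in the authors' deposited table were 3.01 and 2.68, each with an adjusted p of 1.52e-25. Gbp4 stood at 10468 and 11413 in cKO, against 3859 and 2091 in WT. The immunity-related GTPase Iigp1 was at 2660.1 and 2027 in cKO, against 362 and 115 in WT. In each of these genes both knockout libraries exceeded both WT libraries several-fold, and WT2 was below WT1. Gbp10 and the large GTPase gene Gm4070, low in WT, stood at 135 and 204 in cKO for Gbp10, against 14.5 and 11 in WT, and at 300.4 and 224 in cKO for Gm4070, against 30.0 and 15.9 in WT. Members that missed the threshold included 2 without overlap between the genotypes and with WT2 the lowest library: Irgm1 was at 5593 and 5059 in cKO and 1955 and 521 in WT (adjusted p = 0.333 in the authors' table), and Igtp at 6716 and 7437 in cKO and 2543 and 1054 in WT (adjusted p = 0.0578 there). Called genes by DESeq2 over all genes numbered 19 with all libraries, and 9, 8, 18 and 16 without cKO1, cKO2, WT1 and WT2. Several of these genes are close paralogs, as are Gm4070, Gvin1 and the pseudogenes Gm8995, Gm1966 and Gm4759, and how the authors' counting divided shared reads among them is not stated.

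**Figure D2:**
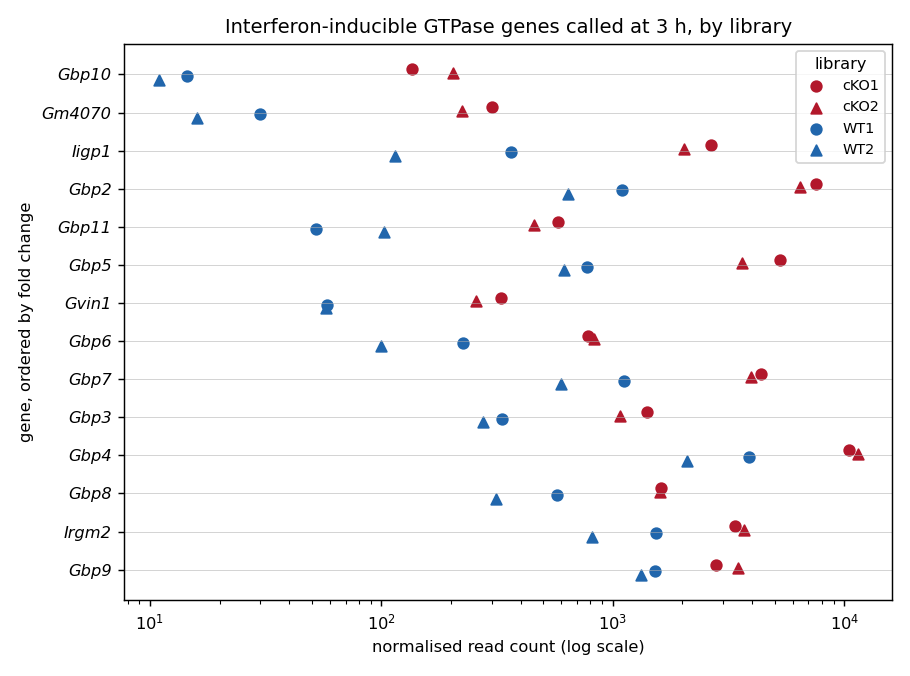
Normalised read count (log scale) of the 14 called interferon-inducible GTPase genes in each library at 3 h, with circles for replicate 1 and triangles for replicate 2, red for cKO and blue for WT. In every row both red points lie to the right of both blue points, which is true of all 176 genes called higher. Gbp5 stood at 5264 and 3608 in cKO and 772 and 616 in WT.

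Antiviral effectors and sensors were listed for 46 of 92 genes, 45 higher and 1 lower, and called for 24 higher and 1 lower (27.2%). Ly6a, which encodes the surface protein Sca-1, had the lowest adjusted p, with 8703 and 4583 in cKO1 and cKO2, against 1149 and 1007 in WT1 and WT2, a log2 fold change of 2.62 (adjusted p = 3.37e-15) in the authors' deposited table. Zbp1, a sensor of Z-form nucleic acids that can start necroptosis, stood at 1414 and 1459 in cKO, against 415 and 275 in WT. The ADP-ribosyltransferase Parp14 was at 4709.8 and 4182 in cKO, against 1682 and 1113 in WT. These 3 genes were higher in both knockout libraries than in either WT library, with cKO1 well above cKO2 for Ly6a. Ms4a6b, a membrane protein of activated T cells, was about 1.99 times as high, at 6263 and 6055 in cKO and 3203 and 2983 in WT. Pml, the organiser of nuclear bodies, was at 1519 and 1254 in cKO and 552 and 439 in WT, and Parp9 at 1037 and 1079 in cKO and 469.9 and 301 in WT. Some classical targets of type I interferon were called in the authors' table as well. Ifit1 stood at 203 and 146 in cKO, against 65.7 and 42.8 in WT (adjusted p = 0.00998 in the authors' table). The kinase Eif2ak2 (PKR), which senses double-stranded RNA and halts translation, stood at 379.6 and 243 in cKO, against 127 and 123 in WT (adjusted p = 0.0117 in the same table). Ifih1, the RNA sensor MDA5, was called too, with a log2 fold change of 1.08 in that table. DESeq2 over all genes with all libraries did not call Ifit1, Eif2ak2 or Ifih1 (adjusted p = 0.349, 0.324 and 0.238). Mx1, Oas2 and Usp18, further targets of this kind, were listed as higher without a call in the authors' table. Apol9b went the other way, at 3.91 and 7.36 in cKO, against 74.4 and 62.7 in WT (log2 fold change -3.61, adjusted p = 0.000254 in the authors' deposited table). It has a near-identical neighbour, Apol9a, and reads of the pair could be split, so this value is uncertain. Of the list, edgeR called 14 and limma 23 when adjusted over the listed genes, and DESeq2 over all genes called 13, then 4, 5, 7 and 4 without cKO1, cKO2, WT1 and WT2. The 79 listed genes of the antiviral, GTPase and interferon signalling lists summed to 180511 and 168202 in cKO1 and cKO2, against 81722 and 62584 in WT1 and WT2.

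Genes that load peptides onto MHC class I were higher by smaller steps. Of 27, 12 were listed, all higher, and 8 (29.6%) were called, all higher, with log2 fold changes of 0.39 to 1.36 over the listed members. Tap1, a subunit of the peptide transporter, had the widest gap, at 8382 and 8189.9 in cKO1 and cKO2, against 4190.4 and 2273 in WT1 and WT2 (log2 fold change 1.36, adjusted p = 0.000228 in the deposited table). Its partner Tap2 stood at 2052 and 2159.7 in cKO, against 1416 and 1267 in WT. The immunoproteasome subunit Psmb9 was at 1571 and 1717 in cKO, against 953 and 628 in WT. No library of one genotype reached into the range of the other for these 3 genes. Tapbp, the chaperone tapasin, and the proteasome activator genes Psme1 and Psme2 were also called, with log2 fold changes of 0.63, 0.44 and 0.65 in the authors' deposited table. The immunoproteasome subunits Psmb8 and Psmb10 were listed but missed the threshold, at 1511 and 1671 in cKO for Psmb8, against 1317 and 954 in WT, and at 861 and 809 in cKO for Psmb10, against 623 and 569 in WT. With DESeq2 over all genes 4 members were called, and 1, 1, 3 and 2 without cKO1, cKO2, WT1 and WT2.

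Chemokines and their receptors were called higher for 8 of 38 genes and lower for none, with 13 listed higher and 1 lower. Ccr2, a receptor of effector and memory T cells, stood at 649.6 and 490.0 in cKO1 and cKO2, against 154 and 142 in WT1 and WT2. The chemokine Ccl22, a ligand of Ccr4, was at 279.8 and 344 in cKO, against 64.8 and 54.8 in WT (log2 fold change 2.38, adjusted p = 3.04e-10 in the authors' table). Both genes were higher in both knockout libraries, with the replicates of a genotype close to each other. The interferon-gamma-induced chemokines Cxcl9 and Cxcl10 were far more uneven. Cxcl9 stood at 992 and 146 in cKO1 and cKO2, against 17.4 and 8.96 in WT1 and WT2 (log2 fold change 5.43, adjusted p = 0.00275 in the deposited table). Cxcl10 stood at 4446 and 985 in cKO, against 291 and 147 in WT. Both were carried mainly by cKO1, as was Cxcl11, which was not called, at 58.7 and 1.05 in cKO and 0.967 and 0 in WT. Of 51 myeloid marker genes, 5 were listed, all higher, and 1 (1.96%) was called in the authors' table, Bst2, which the antiviral list also holds. The listed ones summed to 3790 and 1916 in cKO1 and cKO2, against 1062 and 1596 in WT1 and WT2. Among them Clec7a, a receptor of macrophages and dendritic cells, stood at 979 and 137 in cKO and 19.3 and 51.8 in WT (adjusted p = 0.138 in the authors' table). DESeq2 over all genes with all libraries called Clec7a (adjusted p = 0.00357) and not Bst2 (adjusted p = 0.412). The part of macrophages and dendritic cells in the chemokine values was not tested. By DESeq2 over all genes 6 chemokine or receptor genes were called, then 0, 4, 2 and 2 without cKO1, cKO2, WT1 and WT2; without cKO1, 6 had an unadjusted p under 0.05 by that tool.

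Type 1 helper and cytotoxic genes were listed for 18 of 30 members, all higher, and called for 11 (36.7%), all higher. Tbx21, the factor that directs type 1 differentiation, stood at 2579.9 and 1429 in cKO1 and cKO2, against 387 and 143 in WT1 and WT2 (log2 fold change 2.92, adjusted p = 0.0152 in the deposited table). Ifng, its target and the gene of interferon-gamma, was at 583 and 304 in cKO, against 65.7 and 40.8 in WT (log2 fold change 3.06, adjusted p = 2.57e-09 there). In both genes cKO1 was well above cKO2, and both knockout libraries exceeded both WT libraries. Eomes, a relative of Tbx21 found in cytotoxic and memory cells, was at 354 and 359.6 in cKO, against 174 and 115 in WT. The interleukin-12 receptor chains Il12rb1 and Il12rb2, through which type 1 cells are instructed, stood at 226 and 135 in cKO for Il12rb1, against 47.4 and 58.7 in WT, and at 689.7 and 500.5 in cKO for Il12rb2, against 244 and 109 in WT. Granzyme A (Gzma) was at 488 and 583 in cKO, against 211 and 173 in WT. In these genes no knockout library reached down to a WT library. Serpina3f, a protease inhibitor, was far more uneven between the knockout libraries, at 1037 and 161 in cKO1 and cKO2, against 24.2 and 27.9 in WT1 and WT2. Serpinb9, which protects cells from granzyme B, had the lowest adjusted p of the list, with 906 and 835 in cKO, against 298 and 256 in WT (log2 fold change 1.65, adjusted p = 1.76e-12 in the authors' table). Listed without a call were Runx3, at 1170.1 and 1150.3 in cKO and 843 and 807 in WT, and the colony-stimulating factor Csf2, at 319.9 and 246 in cKO and 129 and 200.1 in WT. DESeq2 over all genes called 7 members with all libraries and 0, 6, 6 and 4 without cKO1, cKO2, WT1 and WT2; without cKO1, 10 had an unadjusted p under 0.05 by that tool.

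Genes of other helper lineages were higher as well. Type 2, type 17 and follicular helper genes were listed for 12 of 28, all higher, and called for 5 (17.9%), all higher. Il17a, the lead cytokine of type 17 cells, stood at 652 and 309 in cKO1 and cKO2, against 75.4 and 46.8 in WT1 and WT2 (log2 fold change 2.97, adjusted p = 3.62e-08 in the authors' table). Il21, made by follicular helper cells, was at 671 and 324 in cKO, against 131 and 92.6 in WT. The type 2 cytokines Il13 and Il5 were low, at 72.4 and 63.1 in cKO for Il13, against 6.77 and 17.9 in WT, and at 24.5 and 53.6 in cKO for Il5, against 3.87 and 0 in WT. So cytokine genes of type 2, type 17 and follicular cells were higher in both knockout libraries, beside the type 1 cytokine Ifng. Lineage factors of these programmes were listed but not called: Gata3 stood at 612 and 629 in cKO and 426 and 296 in WT (adjusted p = 0.12 in the authors' table), and Rora at 745 and 715 in cKO and 534 and 575 in WT (adjusted p = 0.562 there). DESeq2 over all genes called 2 of this list, then 0, 2, 2 and 1 without cKO1, cKO2, WT1 and WT2; without cKO1, 2 had an unadjusted p under 0.05 by that tool.

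Regulatory T cell and costimulatory receptor genes were listed for 14 of 32, 12 higher and 2 lower, and called for 6 (18.8%), all higher. Foxp3, the defining factor of regulatory T cells, stood at 492 and 525 in cKO1 and cKO2, against 204 and 221 in WT1 and WT2, and Ikzf2 (Helios), often expressed with it, at 1179.9 and 1455 in cKO, against 725 and 636 in WT. The inhibitory receptors Ctla4 and Tigit were at 1406 and 948 in cKO for Ctla4, against 449.6 and 331 in WT, and at 387 and 413 in cKO for Tigit, against 190.5 and 220.1 in WT. Both knockout libraries were above both WT libraries in all 4 genes. The activation-induced receptors Tnfrsf9 (4-1BB) and Tnfrsf4 (OX40) were called with log2 fold changes of 0.48 and 0.55 in the authors' deposited table. Nt5e (CD73), an ectoenzyme that makes adenosine, was listed as lower but not called, at 537 and 905 in cKO and 1379 and 1103 in WT. By DESeq2 over all genes 3 members were called, and 0, 1, 1 and 0 without cKO1, cKO2, WT1 and WT2, with 4 and 5 at an unadjusted p under 0.05 by that tool without cKO1 and without WT2.

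Genes typical of memory-like and innate-like lymphocytes were higher although the cells had been isolated as naive. Of 40, 15 were listed, all higher, and 7 (17.5%) were called, all higher. Ly6c1, a surface protein of memory-like cells that interferon also induces, stood at 1568 and 854 in cKO1 and cKO2, against 256 and 135 in WT1 and WT2 (log2 fold change 2.63, adjusted p = 1.6e-08 in the authors' table). The lectin receptor genes Klrc1 (NKG2A) and Klrk1 (NKG2D) were at 214 and 168 in cKO for Klrc1, against 58 and 47.8 in WT, and at 287 and 302 in cKO for Klrk1, against 118 and 75.7 in WT. Il2rb, the receptor chain that memory cells use for interleukins 2 and 15, was at 4314 and 4622 in cKO, against 3276 and 2629 in WT. These genes did not overlap between the genotypes. The activation marker Cd44 was listed at 1679.8 and 1001 in cKO and 816 and 906 in WT (adjusted p = 0.491 in the authors' table). Of 34 genes that mark CD8, NK or gamma-delta T lymphocytes, 10 were listed, all higher, and 5 called, Ccl5, Gzma, Klrc1, Klrk1 and Eomes. All 5 also belong to the type 1 or memory-like list, so their calls are not a separate result. The 10 listed markers summed to 2648 and 2793 in cKO1 and cKO2, against 1125 and 854 in WT1 and WT2. Ncr1, Klrb1c, Zbtb16 and Tcrg-C1, which mark NK, NKT and gamma-delta cells, were low in all libraries. Ncr1 stood at 73.4 and 40.0 in cKO and 14.5 and 11.9 in WT, and Tcrg-C1 at 28.4 and 43.1 in cKO and 10.6 and 3.98 in WT. Cd8a and Cd8b1 were not in the 3 h table, and the part of such cells in these results was not tested. Of 17 genes of CD4 T cell identity, 2 were listed and none called by the authors, edgeR or DESeq2 over all genes, while limma and DESeq2, each over the listed genes, called 1 each; Lck stood at 9261 and 11166 in cKO and 14045 and 12876 in WT, and Cd2 at 7081 and 6973 in cKO and 5415 and 4350.4 in WT. Naive and quiescence genes were listed for 4 of 51 and called for none, by the authors' test, limma, edgeR or DESeq2 over all genes. Over all genes, DESeq2 called 3 memory-like genes, then 0, 3, 2 and 2 without cKO1, cKO2, WT1 and WT2, and 2 markers of the other lymphocytes, then 0 without each library; without cKO1, 7 memory-like genes and 4 of those markers had an unadjusted p under 0.05 by that tool.

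**Figure D3:**
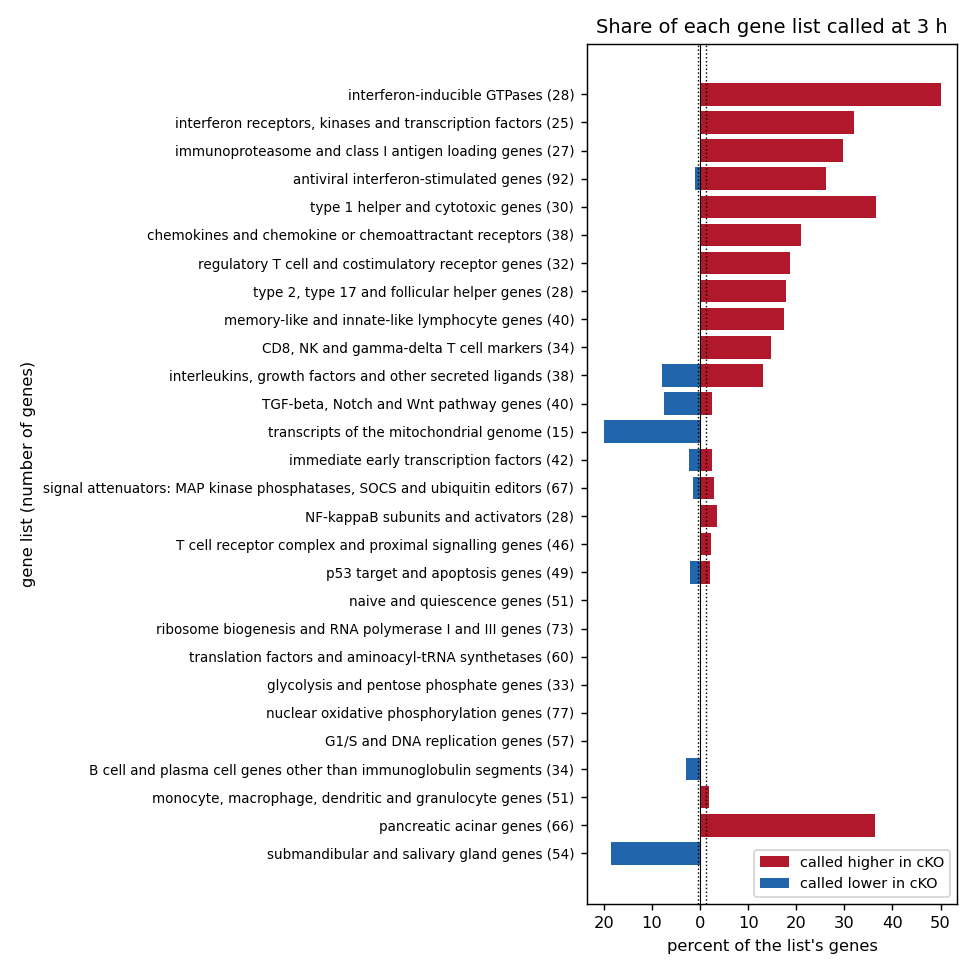
Percent of the genes of 28 lists called at 3 h by the authors' adjusted p, with bars to the right for genes higher in cKO and to the left for genes lower; dotted lines mark 1.14% and 0.500%, the shares of all 15399 genes. Interferon, helper and chemokine lists lie to the right, mitochondrial transcripts (20%) and salivary genes (18.5%) to the left, and lists of growth and metabolism are empty.

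Among the secreted ligands, the rise of helper cytokines was not general. Of 38 interleukins, growth factors and other ligands, 10 were listed higher and 5 lower, with 5 called higher and 3 lower. Those called higher include Ifng, Il17a and Il21, which the helper lists above also hold. The 3 lower ones were Lta, Tnf and Pdgfb. Lta, the ligand lymphotoxin-alpha, stood at 824 and 1026 in cKO1 and cKO2, against 1787 and 2227 in WT1 and WT2 (log2 fold change -1.12, adjusted p = 2.08e-05 in the authors' table). Tnf, whose gene adjoins it, was at 6696 and 7874 in cKO, against 10672 and 11112 in WT (log2 fold change -0.58, adjusted p = 0.00605 in that table). Pdgfb, a growth factor for cells of vessel walls, was at 147 and 107 in cKO, against 367 and 332 in WT. All 3 were below both WT libraries in both knockout libraries. Ltb, the membrane partner of Lta, was listed without a call, at 1784 and 3182 in cKO and 3962 and 3605 in WT, with cKO1 the lowest. The same library thus had the highest Ifng and the lowest Lta and Tnf values. DESeq2 over all genes called 4 ligands, then 0, 5, 3 and 2 without cKO1, cKO2, WT1 and WT2; without cKO1, 6 had an unadjusted p under 0.05 by that tool.

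Genes called lower also included members of signalling pathways. In the TGF-beta, Notch and Wnt list, 4 of 40 were listed and all 4 called. Smad7, an inhibitor of TGF-beta receptors, stood at 3087 and 4302 in cKO1 and cKO2, against 6832 and 7225 in WT1 and WT2, and Skil, a repressor of SMAD factors, at 6287 and 7973 in cKO, against 11775 and 12653 in WT. Notch3 was lower, at 30.3 and 18.9 in cKO, against 85.1 and 173 in WT, while Notch1 was higher, at 12859 and 9869 in cKO, against 6463 and 6245 in WT. So both called feedback inhibitors of the TGF-beta pathway fell, and the 2 Notch receptors went in opposite directions. DESeq2 over all genes called 3 of them, then 0, 3, 0 and 0 without cKO1, cKO2, WT1 and WT2, where 4, 4, 4 and 3 had an unadjusted p under 0.05. Klf10, a TGF-beta-inducible early response factor, was the 1 immediate early gene called lower, at 421 and 497 in cKO, against 996 and 1071 in WT (log2 fold change -1.17, adjusted p = 5.27e-07 in the authors' table). Rara, the retinoic acid receptor alpha, chosen after its values were seen, was at 2614 and 2785 in cKO, against 5141 and 4757 in WT. Bcor, a corepressor subunit, was at 2717 and 2946 in cKO, against 4874 and 4669 in WT. In these 3 genes the libraries of a genotype lay close together and the genotypes did not overlap.

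Few immediate early transcription factors were called: of 42, 10 were listed and 2 passed (4.76%), Klf10 lower and Hif1a higher. Hif1a, the factor of the hypoxia response that T cells also use for glycolysis, stood at 8453 and 6002 in cKO1 and cKO2, against 3943 and 4508 in WT1 and WT2. The receptor-induced factors Egr3 and Irf4 were listed without a call, Egr3 at 10365 and 14419.8 in cKO and 17335 and 16921 in WT and Irf4 at 36748 and 32727 in cKO and 27774 and 24001 in WT. Myc, which drives growth of the activated cell, stood at 22905 and 19582 in cKO and 15074 and 18449 in WT (log2 fold change 0.34, adjusted p = 0.714 in the deposited table). For none of these 3 did the difference pass the adjusted threshold. Of 67 attenuators of signalling, 15 were listed and 3 (4.48%) called. Rgs1, which dampens chemokine receptor signals, and the adaptor Sla were higher, at 2295 and 2167 in cKO for Rgs1, against 1231 and 1302 in WT, and at 22891 and 18108 in cKO for Sla, against 12953 and 12704 in WT. The MAP kinase phosphatase Dusp2 was lower, at 11858 and 14884 in cKO, against 20441 and 20262 in WT. In the list of T cell receptor and proximal signalling genes 1 of 46 (2.17%) was called, the tetraspanin Cd53. In the NF-kappaB list it was 1 of 28 (3.57%), the adhesion molecule Icam1. Over all genes tested 1.64% were called. Neither gene is itself a receptor component, a proximal kinase or an NF-kappaB subunit. DESeq2 over all genes with all libraries called neither (adjusted p = 0.359 for Cd53 and 0.194 for Icam1). The gap of Cd53 was narrow but free of overlap, at 29930.5 and 28766 in cKO and 22781 and 22255 in WT. In the p53 and apoptosis list 2 of 49 were called in opposite directions. The BH3-only gene Pmaip1 (Noxa) was at 705 and 515 in cKO, against 207 and 294 in WT, and Bbc3 (Puma) at 411 and 527 in cKO, against 842 and 816 in WT. None of the genes in this paragraph was called by DESeq2 over all genes in each of the fits that leave out 1 library.

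Genes of biosynthesis were mostly outside the calls. Among those called, Slc3a2, the shared heavy chain of large neutral amino acid transporters, stood at 17201 and 16045 in cKO1 and cKO2, against 8121 and 9081 in WT1 and WT2 (log2 fold change 0.95, adjusted p = 7.29e-10 in the authors' table). Elovl6, an enzyme that lengthens fatty acids, was at 877 and 572 in cKO, against 190.5 and 271 in WT, and the endoplasmic reticulum stress sensor Ern1 at 1650.5 and 1327 in cKO, against 858 and 859 in WT. All 3 were higher in both knockout libraries. Ribosome biogenesis genes were listed for 9 of 73, all higher, translation factors and aminoacyl-tRNA synthetases for 4 of 60, all higher, and cytosolic ribosomal protein genes for 2 of 82, both lower. Glycolysis and pentose phosphate genes had 2 of 33 listed, G1/S genes 2 of 57, G2/M genes 1 of 50, and nuclear oxidative phosphorylation genes 0 of 77. No gene of these 7 lists was called by the authors, limma, edgeR or DESeq2. The widest gap among the ribosome biogenesis genes was in Noc4l, at 2634 and 1884 in cKO and 1491 and 1585 in WT (adjusted p = 0.277 in the authors' table).

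Transcripts of the mitochondrial genome were listed for 8 of 15 genes, all lower in cKO, and 3 (20%) were called, mt-Atp6, mt-Nd1 and mt-Nd4. The complex I subunit mt-Nd1 stood at 29245 and 38076 in cKO1 and cKO2, against 49845 and 52533 in WT1 and WT2 (log2 fold change -0.60, adjusted p = 0.0306 in the authors' table). The complex I subunit mt-Nd4 was at 14052 and 20538 in cKO, against 27343 and 28841 in WT, and the ATP synthase subunit mt-Atp6 at 209 and 335 in cKO, against 484 and 964 in WT. For these genes cKO1 was the lowest library and both WT libraries were above both knockout libraries. The 8 listed members summed to 228684 and 299743 in cKO, against 374694 and 436043 in WT. The ribosomal RNA mt-Rnr1 was uneven, at 10098 and 10264 in cKO and 13570.1 and 36417 in WT. The pseudogenes Gm28437 and Gm28661, chosen after their values were seen, were lower as well, at 161 and 268 in cKO for Gm28437, against 441 and 531 in WT, and at 226 and 367 in cKO for Gm28661, against 583 and 611 in WT. Reads of a pseudogene can belong to its parent gene, so these values are uncertain and add no separate result. How the authors' counting divided shared reads is not stated. The call depended on the tool: limma called 1, edgeR 0 and DESeq2 8 of the 15 when adjusted over the listed genes, while DESeq2 over all genes called 0, and 0, 3, 1 and 0 without cKO1, cKO2, WT1 and WT2. All 8 had an unadjusted p under 0.05 in the authors' table.

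**Figure D4:**
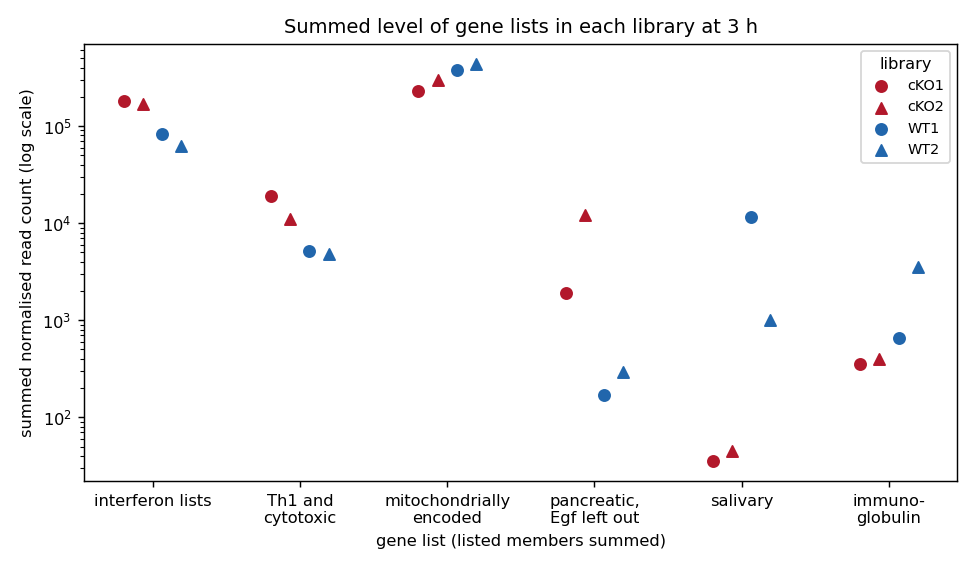
Summed normalised read count (log scale) of the listed members of 6 gene lists in each library, with circles for replicate 1 and triangles for replicate 2, red for cKO and blue for WT. Interferon genes are higher in both cKO libraries (180511 and 168202, against 81722 and 62584 in WT), mitochondrial transcripts are lower in both, and pancreatic, salivary and immunoglobulin sums each peak in a single library, cKO2, WT1 and WT2 in that order.

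Long noncoding genes, pseudogenes and unnamed genes were called in both directions. Snhg1, a host gene of small nucleolar RNAs, stood at 2469 and 2382 in cKO1 and cKO2, against 1112 and 1157 in WT1 and WT2 (log2 fold change 1.10, adjusted p = 9.21e-12 in the deposited table). AW112010, a transcript of inflammatory cells, was at 773 and 877 in cKO, against 409 and 349.5 in WT, and Gm44889 at 6.85 and 12.6 in cKO, against 63.8 and 125 in WT. The first pair was higher and Gm44889 lower in both knockout libraries. The processed pseudogene Gm33707 was nearly absent from WT, at 147 and 244 in cKO, against 1.93 and 0.996 in WT (adjusted p = 1.99e-10 in the authors' table), and is on chromosome 3. Rps26-ps1, a transcribed pseudogene of a ribosomal protein, was lower, at 134 and 170.3 in cKO, against 1221 and 437 in WT, and Gm47283 of chromosome Y was lower as well, at 73.4 and 125 in cKO, against 447 and 435 in WT. Reads of a pseudogene can belong to its parent gene, so these values are uncertain. Of the 4 DESeq2 fits without 1 library, adjusted over all genes, Gm33707 was called in 4, Snhg1 in 2, Rps26-ps1 and Gm47283 in 1 each, and AW112010 and Gm44889 in 0.

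Further genes stood outside every list, 55 of them called higher and 51 lower, and those named here were chosen after their values were seen unless they are among the 12 highest or 12 lowest called genes. Stat3, the transcription factor of interleukin-6 and interleukin-21 signals, had 12929.8 and 12521 in cKO1 and cKO2, against 6612 and 6981 in WT1 and WT2 (log2 fold change 0.90, adjusted p = 2.42e-11 in the deposited table). Cd163l1, a scavenger receptor relative found on gamma-delta T cells, was among the 12 highest, at 227 and 266 in cKO, against 34.8 and 21.9 in WT. Nampt, the rate-limiting enzyme of NAD salvage, was at 2483 and 2147 in cKO, against 1162 and 1158 in WT. All 3 were higher in both knockout libraries with little spread. Samhd1, a phosphohydrolase that depletes nucleotides and restricts viruses, was at 7913 and 10625 in cKO, against 4636 and 2980.2 in WT, and Tbkbp1, an adaptor of the kinase TBK1, at 1152 and 535 in cKO, against 191 and 92.6 in WT. The receptor tyrosine kinase gene Kit was at 931 and 699 in cKO, against 308 and 367 in WT. Each again had both knockout libraries above both WT libraries. Among the genes called lower, Rcan3, a regulator of calcineurin and among the 12 lowest, was at 568 and 885 in cKO, against 2710.2 and 1376 in WT, and Orai2, a calcium channel subunit, at 1166 and 1243 in cKO, against 1849.6 and 2069 in WT. The extracellular matrix gene Bgn and the insulin-like growth factor binding protein gene Igfbp7 were among the 12 lowest, at 47 and 75.7 in cKO for Bgn, against 142 and 269.8 in WT, and at 92.9 and 176 in cKO for Igfbp7, against 370.3 and 470.0 in WT. The aldehyde dehydrogenase Aldh7a1 and the plasma glutathione peroxidase Gpx3 were in that group too, at 102 and 139 in cKO for Aldh7a1, against 274 and 424 in WT, and at 62.6 and 62 in cKO for Gpx3, against 127 and 223 in WT. Their groups did not overlap. By DESeq2 over all genes with all libraries, Orai2, Bgn, Igfbp7, Aldh7a1 and Gpx3 were not called (adjusted p = 0.0594, 0.416, 0.0807, 0.116 and 0.673). The other genes of this paragraph were called by that fit. Bgn and Gpx3 also missed the threshold by limma over the listed genes (adjusted p = 0.0502 and 0.0568).

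Few calls held across the DESeq2 fits with all libraries and without each, and none held by edgeR adjusted over all genes. Adjusted over all 15399 genes, the DESeq2 fit to every library made 137 calls, and the fits lacking cKO1, cKO2, WT1 or WT2 made 41, 70, 80 and 81. Of the authors' 253 calls, 123 were also called by it with all libraries and 17 in each of the fits without a library as well, 1 lower and 16 higher. The lower one was Trmt61a. The higher ones were the GTPases Gbp2, Gbp3, Gbp4, Gbp5, Gbp7 and Iigp1, the interferon genes Ly6a, Zbp1, Ms4a6b, Parp14 and Nlrc5, then Stat3, Slc3a2, the pseudogene Gm33707 and the pancreatic genes Ctrb1 and Amy2a1. By edgeR, adjusted over all 15399 genes, 0 were called, against 660 listed genes at an unadjusted p under 0.05 by that test and 270 when adjusted over the listed genes alone. With 2 libraries per genotype an exact permutation test of a single gene cannot go below p = 0.333.

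The 3 h differences were set beside those of the other times, each with its own libraries. Of the 253 genes called at 3 h, 153 (60.5%) were listed at 6 h, where 4.46% of genes were, and all 153 had the same direction, 101 higher and 52 lower. The same held for nearly all genes listed at both times, called or not. Of the 1091 genes listed at 3 h, 345 (31.6%) were listed at 6 h. Of these, 198 were higher and 146 lower at both times, and 1 turned. Called at both times were 48 genes, 36 higher and 12 lower, which is 19.0% of the calls at 3 h and 57.8% of the 83 calls at 6 h, where 0.500% of genes were called. Several had close folds at both times. Tbx21 stood at 1356 and 998 in cKO1 and cKO2 at 6 h, against 203 and 115 in WT1 and WT2, with log2 fold changes of 2.92 at 3 h and 2.89 at 6 h in the authors' tables. Ifng was at 679.5 and 258 in cKO at 6 h, against 93.9 and 18.1 in WT, with 3.06 at 3 h and 3.07 at 6 h on the log2 scale of those tables. Ccl22 was at 1742 and 1528 in cKO at 6 h, against 249.7 and 212 in WT. For these genes both knockout libraries were above both WT libraries at 6 h too. Pdgfb and Klf10 were lower at both times, at 275 and 351 in cKO at 6 h for Pdgfb, against 830.1 and 1191 in WT, and at 242 and 405 in cKO for Klf10, against 1120.2 and 966 in WT. Of the GTPases, 14 were called at 3 h and 3 at 6 h, and of the antiviral genes 24 at 3 h and 17 at 6 h were called higher. Calls over all genes numbered 253 at 3 h and 83 at 6 h. Listed higher were 45 antiviral genes at 3 h and 56 at 6 h, with 1 lower at each time. For the GTPases 21 were listed higher at 3 h and 12 at 6 h, where 1 was lower. The list of type 2, type 17 and follicular helper genes had 5 calls at 3 h and 0 at 6 h by the authors' test, with 5 listed higher and 2 lower at 6 h. The difference between the times was not tested. At 0 h, where 3 genes (0.0122%) were called, 19 of the 253 genes were listed in the same direction and 2 called, Trmt61a and Klk1b26. At that time 1.57% of genes were listed. The recovered number of tested genes at 0 h, 24502, reproduced only 2.60% of the adjusted p-values, so both 0 h shares are uncertain. The number behind the 6 h shares, 16602, reproduced 78.3%, and at 3 h and 48 h the match was 100%. At 48 h, where 2.37% of genes were called, 13 of the 253 were called, of which 5 were higher and 2 lower at both times and 6 had turned. At no other time were 73 of the 253 genes listed. Whether libraries of the same number at different times share an animal is not stated, and pancreatic and salivary genes were among those called at both 3 h and 6 h.

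**Figure D5:**
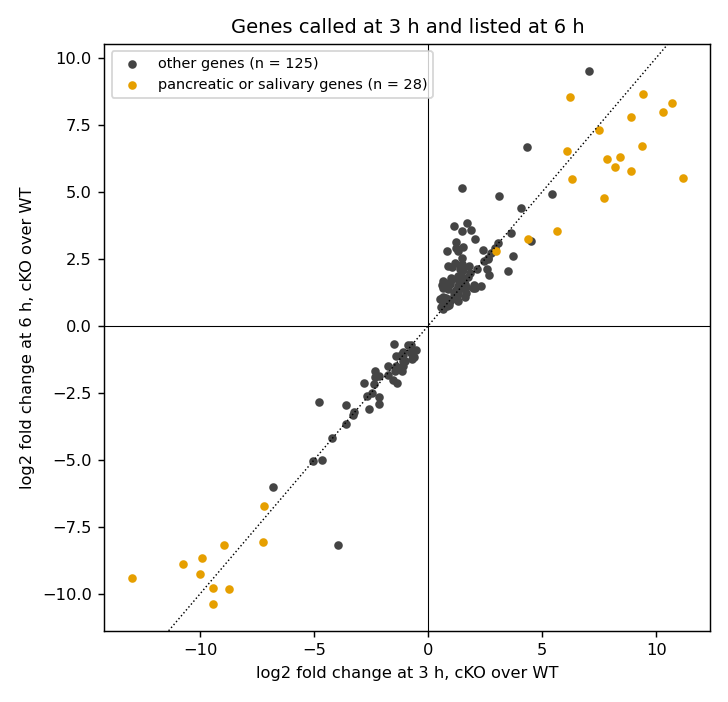
Log2 fold change of cKO over WT in the authors' tables at 3 h against that at 6 h, for the 153 genes called at 3 h and listed at 6 h; the dotted line marks equal folds. All points lie at the lower left or the upper right, 101 higher and 52 lower at both times. Among all 345 genes listed at both times, called or not, 1 changed direction.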

How the data were processed

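Per the labels' protocols, total RNA was extracted with TRIzol and directional libraries were made. The submitters' processing notes name the build mm10, the counter featureCounts (1.5.0-p3), the aligners Bowtie2 (2.4.1) and HISAT2 (2.0.5), and the trimmer Trim Galore (0.6.6), with no assay given for each; the strand setting and the treatment of reads shared by paralogs are not given in the sources used here. Per library, the authors deposited a signal: read counts divided by 1 scaling factor, since 100% of values above 0 were whole multiples of a step (tolerance 0.01), 1 read being worth 0.967 to 1.05. The deposited tables also give the log2 fold change of cKO over WT and the p-value and adjusted p-value, from a test not named there, for genes with an unadjusted p under 0.05. The recovered reads over the listed genes numbered 1784474 to 1940866 per library; total depth is unknown. Of the listed genes, 89 had an adjusted p of 1 apart from the rest and could not be called.

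Calls used the authors' adjusted p under 0.05. Alternatives were limma 3.58.1 on log2(value + 1) or with a pseudocount of 10, and edgeR 4.0.16 (quasi-likelihood) and DESeq2 1.42.0 on the recovered reads, adjusted over the listed genes or over all 15399, each library left out in turn (DESeq2), and a replicate block. The fits, in R 4.3.3, were tested on simulated data. The fit of DESeq2 to listed genes alone estimates the spread from selected genes. Chosen after seeing the data were the fits over all genes by edgeR, the edgeR block and the list counts by DESeq2 over all genes. Named genes were Trmt61a, its m1A relatives and Myc; the 12 highest and 12 lowest called genes by fold change (mean 100 or more, genotypes apart, established symbol, outside the tissue lists); the 4 outermost pancreatic and salivary genes; up to 6 members per list by adjusted p; up to 20 genes called at another time; and 5 long noncoding genes; others were named after their values were seen. Some genes that this rule names are not reported here. The gene lists, members and tests were chosen with earlier results of these data known. Promoters came from RefSeq (GRCm38.p6).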

Additional observations from a re-analysis of the deposited data

Results flagged for a closer look

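For 6 genes called at both 3 h and 48 h, cKO and WT libraries did not overlap at either time and the direction at 48 h was the opposite of that at 3 h; the difference between the times was not tested. Ifi47, an interferon-inducible GTPase gene outside the list used here, had a log2 fold change of 1.54 at 3 h and -0.37 at 48 h in the authors' tables, with 4896 and 5424 in cKO at 48 h, against 6457 and 6869 in WT. Eomes had 1.31 at 3 h and -0.51 at 48 h on the same scale, with 944 and 973 in cKO at 48 h, against 1481 and 1242 in WT. The type 2 cytokine gene Il13 had 2.46 at 3 h and -1.09 at 48 h, with 109 and 108 in cKO at 48 h, against 198 and 265 in WT. The fatty acid elongase Elovl6 had 1.65 at 3 h and -0.59 at 48 h. The proapoptotic Bbc3 had -0.82 at 3 h and 0.68 at 48 h, with 1129 and 839 in cKO at 48 h, against 587 and 641 in WT. Ulbp1, a ligand of the NKG2D receptor, had -1.13 at 3 h and 0.56 at 48 h. The libraries of the times are separate, and the scaling of each table was made apart.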

How the results depend on the processing

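The total of 253 calls was within 1.5 times under filters on the mean value of at least 10 (253) or 50 (227), an absolute log2 fold change of at least 1 (174), and limma with a pseudocount of 10, edgeR with either scaling, and DESeq2 adjusted over the listed genes (270 to 327). It moved to 414 with limma at a pseudocount of 1 and to 137 with DESeq2 and 0 with edgeR adjusted over all tested genes. The replicate numbers gave no sign of pairing (the correlation of same-numbered deviations was -0.094), and with the replicate block 92 genes were called by DESeq2 over all genes, 325 by limma and 96 by edgeR over the listed genes. Leaving out 1 library gave 41 to 81 by DESeq2 over all genes (41, 70, 80 and 81 without cKO1, cKO2, WT1 and WT2). In the same fit with all libraries, list members called were 13 antiviral, 4 antigen loading, 7 type 1, 2 type 2, 17 and follicular, 3 regulatory, 4 secreted ligand, 3 memory-like, 2 CD8, NK and gamma-delta and 0 mitochondrial genes. With the replicate block these counts were 7 antiviral, 5 interferon signalling, 2 antigen loading, 5 chemokine, 6 type 1, 2 type 2, 17 and follicular, 1 regulatory, 4 ligand, 3 memory-like, 0 CD8, NK and gamma-delta, 0 mitochondrial and 1 TGF-beta and Notch gene. Without 1 library they ranged from 4 to 7 antiviral, 8 to 18 GTPase (9 without cKO1), 1 to 6 signalling, 1 to 3 antigen loading, 0 to 4 chemokine, 0 to 6 type 1, 0 to 2 type 2, 17 and follicular, 0 to 1 regulatory, 0 to 5 ligand, 0 to 3 memory-like, 0 to 0 CD8, NK and gamma-delta, 0 to 3 mitochondrial, 0 to 3 TGF-beta and Notch, 2 to 17 pancreatic and 1 to 16 salivary genes. Adjusted over the listed genes, edgeR called 14 antiviral, 2 type 2, 17 and follicular, 3 regulatory and 0 mitochondrial genes, limma 1 mitochondrial and 17 salivary, and DESeq2 8 mitochondrial and 17 salivary. The fits with fewer libraries have fewer samples, and the cause of the other changes was not tested. Of 196 named genes none reversed. Nearly all of them had genotypes that did not overlap, so a refit or the loss of a library could hardly turn their sign. The lack of reversals therefore adds no support. DESeq2 over all genes, with all libraries, lost the call of 42 and gained 2. Limits are the 2 libraries per genotype, the table's restriction to genes with an unadjusted p under 0.05, and a depth known only over the listed genes.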

Other observations

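Receptors and adhesion genes outside the groups above also differed at 3 h. Of 65 adhesion and cytoskeleton genes, 9 were listed higher and 4 lower, and 3 were called, all higher in the authors' table: the integrin chain Itgb3, at 1219 and 1009 in cKO1 and cKO2, against 629 and 691 in WT1 and WT2, Icam1, at 3621 and 3407 in cKO, against 2004 and 2506 in WT, and Jaml, a junctional adhesion molecule of T cells, at 189.8 and 127 in cKO, against 56.1 and 53.8 in WT. DESeq2 over all genes called none of the 3, limma called 3 and edgeR 2 of the list over the listed genes. Cytoskeletal genes listed as lower, such as Myh9, the heavy chain of nonmuscle myosin, at 11932 and 16234 in cKO and 22380.3 and 18049 in WT, did not pass the threshold (adjusted p = 0.323 in the authors' table). The plasma cell gene Mzb1 was the 1 of 34 B cell genes called, lower at 23.5 and 41 in cKO, against 87 and 159 in WT. Mzb1 was not called by limma over the listed genes (adjusted p = 0.0517) or by DESeq2 over all genes (adjusted p = 0.605), and was highest in WT2, as the immunoglobulin segments were. The other 2 listed genes of that list, Irf4 and the plasma cell factor Prdm1, had higher values in cKO without a call, with Prdm1 at 283 and 199 in cKO, against 146 and 141 in WT.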
